A study of Mus musculus with 4 samples.

Results

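The genes described here are Sox4, Sox11, Sox12, Sox9, Sox10, Bcl11a and Bcl11b, 7 of the 30406 genes whose identifiers are in the gene lists of all 4 libraries. They were chosen by name as transcription factors linked with fetal or progenitor cells. Single-cell RNA-seq (scRNA-seq) was performed on mammary tissue of female wild-type mice (labelled WT C57B6) on embryonic days E13.5 and E14.5, on E15.5 and on the day of birth (P0), with 1 library per stage. Rudiments of several embryos from different dams were pooled within a stage, epithelial (EpCAM+) and stromal (EpCAM-) cells were sorted after exclusion of CD45+, CD31+ and Ter119+ cells, and 3' libraries were made on the 10x Chromium platform. The stages were dissected separately, and P0 glands were digested with other enzyme amounts and had an extra step of red cell lysis. Stage and library therefore cannot be told apart, no value has a replicate and no test between stages was possible. Each interval below is an exact 95% interval that covers counting error only.

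Sox proteins bind DNA through an HMG box and fall into groups by sequence. Sox4, Sox11 and Sox12 make up the SoxC group, which is widely used in embryonic progenitors, while Sox9 and Sox10 belong to the SoxE group, in which Sox9 acts in cartilage and in many epithelia and Sox10 in the neural crest and its glial and pigment cell descendants. Bcl11a and Bcl11b are zinc finger proteins that associate with the BAF chromatin remodelling complex, and are best known for their roles in blood cells, where Bcl11a silences fetal globin genes and Bcl11b directs T cell commitment. In the mammary gland, Sox9 and Sox10 have been tied to progenitor cells of the luminal and basal lineages, and both Bcl11 genes to the upkeep of progenitors.

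All 7 genes are protein coding. In the GRCm38 annotation (GENCODE M21), Sox4 lies on the minus strand at chr13:28948919-28953713, Sox11 on the minus strand at chr12:27334264-27342574 and Sox12 on the minus strand at chr2:152393611-152398063. Sox9 lies on the plus strand at chr11:112782224-112787760 and Sox10 on the minus strand at chr15:79154908-79165240. Bcl11a lies on the plus strand at chr11:24078056-24174123 and Bcl11b on the minus strand at chr12:107910403-108003602. Gm26735 overlaps Sox4 on the opposite strand, and Gm12064 and 4930538E20Rik overlap Bcl11a in the same way, so that reads counted without strand could not be told apart there. Whether strand was used in the counting was not given in the sources used here.

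The promoter sequences of the SoxC genes are shown because these relatives differed in their course from E15.5 to P0, and that of Bcl11a because it was lower at P0 in mesenchyme but not in epithelium. Each runs 5' to 3' from 250 to 31 bases before the RefSeq gene start (GRCm38.p6), a stretch of 220 bases that no annotated exon overlaps. For Bcl11a the RefSeq start is downstream of the GENCODE start, so its stretch lies inside the gene span given above. Capitals mark matches to the CCAAT box (CCAAT, or ATTGG on the other strand) and to the GC box (GGGCGG, or CCGCCC on the other strand), and the pair of GC box matches at the start of the Sox12 stretch overlap each other.
Sox4, minus strand, chr13:28953730-28953949: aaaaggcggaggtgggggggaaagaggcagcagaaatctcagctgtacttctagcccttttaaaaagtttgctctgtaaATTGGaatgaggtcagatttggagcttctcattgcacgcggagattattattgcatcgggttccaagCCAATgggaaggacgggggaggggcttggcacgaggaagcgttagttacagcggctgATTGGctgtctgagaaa
Sox11, minus strand, chr12:27342749-27342968: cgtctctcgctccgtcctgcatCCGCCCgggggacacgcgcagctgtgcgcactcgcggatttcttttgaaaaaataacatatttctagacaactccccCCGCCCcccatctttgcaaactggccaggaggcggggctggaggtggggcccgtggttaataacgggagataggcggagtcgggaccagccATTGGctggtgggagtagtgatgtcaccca
Sox12, minus strand, chr2:152398077-152398296: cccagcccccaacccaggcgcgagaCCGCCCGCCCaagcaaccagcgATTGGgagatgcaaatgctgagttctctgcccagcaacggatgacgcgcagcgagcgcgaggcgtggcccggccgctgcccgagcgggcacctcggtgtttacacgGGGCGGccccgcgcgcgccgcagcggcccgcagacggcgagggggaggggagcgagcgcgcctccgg
Bcl11a, plus strand, chr11:24080445-24080664: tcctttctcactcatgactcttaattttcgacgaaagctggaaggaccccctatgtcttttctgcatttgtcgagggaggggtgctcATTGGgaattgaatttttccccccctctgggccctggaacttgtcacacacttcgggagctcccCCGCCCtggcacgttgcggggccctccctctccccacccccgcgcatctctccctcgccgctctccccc
The Sox4 stretch held 3 CCAAT matches and 0 GC box matches, whereas Sox11 held 1 and 2, Sox12 1 and 3, and Bcl11a 1 and 1. Of the 32851 RefSeq promoters over the same bases, 31.0% held a CCAAT match, 28.5% a GC box and 9.95% a TATA box (TATAAA or TTTATA on the other strand), and none of these 4 stretches held a TATA match. GC content was 50.0% in Sox4, 60.0% in Sox11, 75.0% in Sox12 and 59.5% in Bcl11a, against a median of 51.8% over all promoters. The SoxC stretches thus differed in composition, with 8 CpG dinucleotides in Sox4, 16 in Sox11 and 32 in Sox12, against a median of 5.

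Cells with at least 5000 UMIs (unique molecular identifiers, each standing for 1 captured transcript) and at most 6% mitochondrial UMIs were kept, which left 1630 of 5896 barcodes, 235, 76, 816 and 503 of them at the successive stages. A cell was called epithelium when its summed UMIs of Epcam, Krt8, Krt18, Krt5 and Krt14 exceeded those of Col1a1, Col1a2 and Col3a1, and mesenchyme in the opposite case. There were 98, 45, 532 and 230 epithelial and 135, 31, 283 and 273 mesenchymal cells in the same order, and 3 cells were tied. The median depth was 18968, 26725, 24696 and 9973 UMIs per epithelial cell and 16438, 24268, 24376 and 8743 per mesenchymal cell, so P0 was the shallowest library. No kept barcode was shared between libraries. Embryonic epithelium held UMIs of all 7 bud markers (Pthlh, Ndnf, Tbx3, Msx1, Wnt10b, Sostdc1 and Lmo1), at a summed level of 317 to 860.0 CPM (UMIs of the genes as a share of all UMIs, scaled in the usual way) against 63.5 at P0. A skin list (Krt1, Krt10, Krt77, Krtdap, Sbsn, Lor, Gabrp and Hopx) stood at 469 to 1297 CPM in embryonic epithelium against 92.6 at P0. The paper removed contaminating skin cells before its analysis of mammary epithelium. The tissue rule used here does not, so epithelium here is not mammary epithelium alone, and the part of skin cells in the stage ratios was not tested beyond an alternative named below. P0 mesenchyme stood apart in holding 821 UMIs of a T cell list, 787 of them from Cd3e, and 241 UMIs of an endothelial list, 153 of them from Tek. Each of these sums came mostly from 1 gene and so does not by itself mark the cell type. In P0 mesenchyme 13 cells had at least 2 of its 26038 red cell UMIs. The sort was set to remove all 3 cell types, and whether such cells passed it was not tested. With mesenchymal cells holding at least 2 UMIs of the T cell, endothelial or muscle lists left out, the count of members lower at P0 in mesenchyme given below was the same.

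Sox4, a SoxC activator of progenitor programmes, was retained at birth in the epithelium, so that, like Sox9, it goes against a description of the set as fetal there. Its level (its summed UMIs over all UMIs of the class, scaled to CPM) was 778, 717 and 525 CPM in the epithelium of the embryonic stages in turn and 948 CPM in that of P0. In mesenchyme it was 494, 369.9 and 357 CPM and then 133 CPM. Epithelium was thus above mesenchyme at every stage, the P0 epithelium held the highest of the 8 levels and the P0 mesenchyme the lowest. From E15.5 to P0 the epithelial level was 1.81 times as high (1.73 to 1.89) and the mesenchymal level 0.373 times as high (0.332 to 0.418). In subsets described below, the E15.5 bud cells were at 0.927 times the P0 basal cells (0.786 to 1.10). They were at 0.676 times the P0 luminal progenitor cells (0.639 to 0.716). The E13.5 bud cells were at 1.03 times those of E15.5 (0.953 to 1.11). The part of cell mix in the epithelial difference was not tested. In the order of levels, E13.5 and E14.5 epithelium, E15.5 epithelium and E13.5 mesenchyme, and E14.5 and E15.5 mesenchyme did not differ beyond counting error.

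Sox11, a SoxC gene known from embryonic neurons and from tissue interactions during organ formation, followed another course. It stood at 417, 626 and 778 CPM in embryonic epithelium, in order of stage, and at 65.8 CPM at P0, with 851, 797, 11124 and 172 UMIs. In mesenchyme it stood at 343, 138 and 55.9 CPM in the embryo and at 67.4 CPM at P0. The epithelial level was therefore highest just before the gap in sampling and 11.8 times as high at E15.5 as at P0 (10.2 to 13.8), whereas the mesenchymal level was already 6.13 times as high at E13.5 as at E15.5 (5.44 to 6.92) and did not decline further. The levels of P0 epithelium, P0 mesenchyme and E15.5 mesenchyme were the lowest, and neighbours among them did not differ beyond counting error. P0 barcodes that the limit on UMIs or that on mitochondrial UMIs left out, 963 with a median of 1594 UMIs, held Sox11 at 49.6 CPM (40.2 to 60.4). They were not all shallow, since a limit of 10% mitochondrial UMIs kept 253 epithelial cells at P0 in place of 230. A like low level was thus found in every P0 fraction, and whether free RNA set it was not tested. Among P0 epithelial cells, 1 cell had 48 of the 172 UMIs and the tenth of cells with the most Sox11 held 75.0% of them.

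Sox12, the third SoxC gene, was sparse throughout. It gave 41, 43, 165 and 6 UMIs in epithelium, or 20.1, 33.8, 11.5 and 2.29 CPM, and 84, 37, 211 and 16 UMIs in mesenchyme, or 34.9, 44.2, 29.1 and 6.38 CPM. Both tissues were lowest at P0, with levels 5.03 times as high at E15.5 in epithelium (2.26 to 13.9) and 4.56 times as high in mesenchyme (2.74 to 8.12). The mesenchymal level was above the epithelial one at E13.5, E15.5 and P0, and at E14.5 the interval of their ratio held 1.

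**Figure D1:**
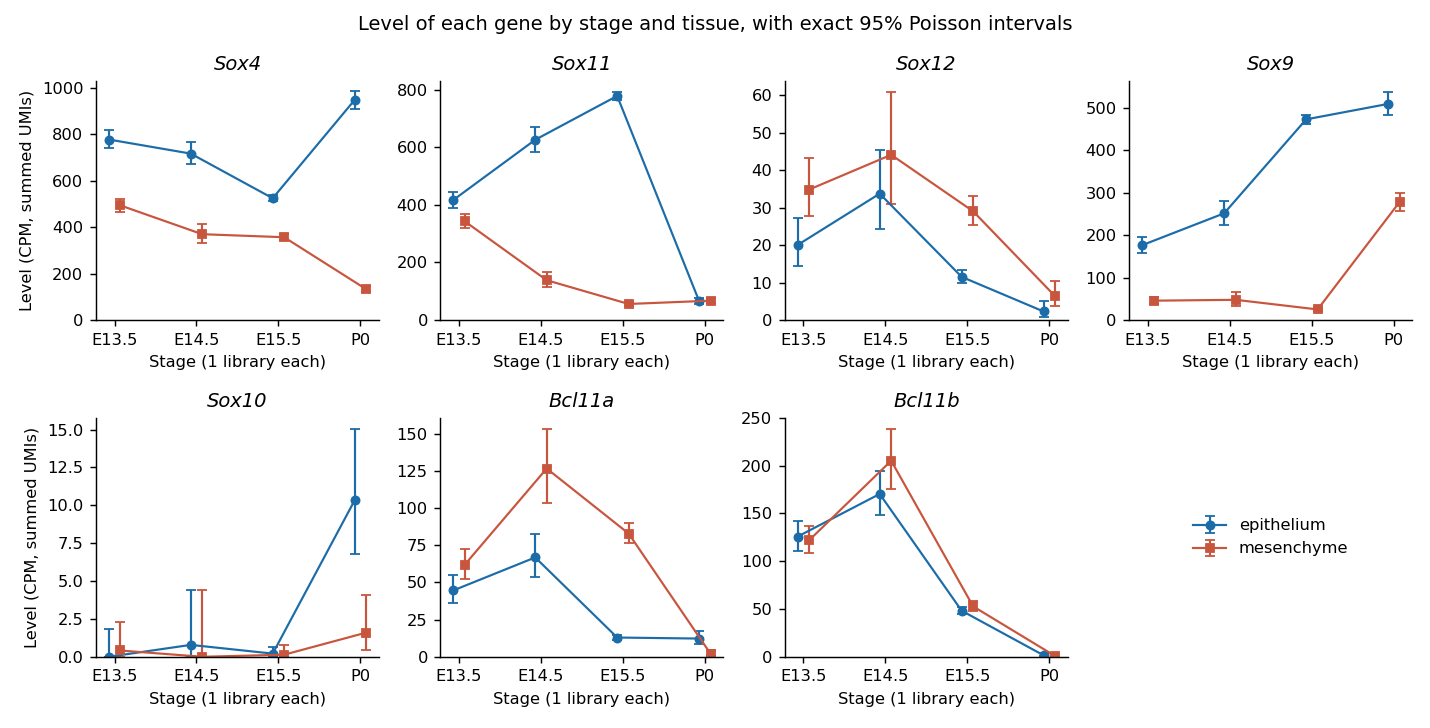
Level of each gene in CPM (vertical axes, linear, each with its own range) by stage (horizontal axes) in epithelium (circles) and mesenchyme (squares), 1 library per stage, with exact 95% Poisson intervals as bars. Sox4 and Sox9 were highest in P0 epithelium, Sox11 dropped from 778 to 65.8 CPM in epithelium between E15.5 and P0, and Bcl11b was at 1.53 and 0.798 CPM in the tissues of P0.

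Sox9, the SoxE factor known from cartilage and from luminal mammary cells, was not lost at birth in either tissue as a whole. Its epithelial level was 176, 251 and 472 CPM at the embryonic stages in turn and 509 CPM at P0. Its mesenchymal level was 45.7, 47.7 and 25.1 CPM in the embryo and 278 CPM at P0. Epithelium was thus lowest at E13.5, and P0 was within 1.08-fold of E15.5 (1.01 to 1.14), but in mesenchyme the P0 level was 11.1 times that of E15.5 (9.41 to 13.1). In subsets described below, the E15.5 bud cells were at 2.08 times the P0 basal cells (1.54 to 2.88), which held 43 UMIs. They were at 0.786 times the P0 luminal progenitor cells (0.729 to 0.847). The mesenchymal level at P0 was 54.6% of the epithelial one, while Krt8, Epcam and Plet1, genes of epithelial cells, were at 2.51%, 2.54% and 3.27% of theirs and Aldh1a3, a luminal progenitor gene, at 11.4%. In the 77 P0 mesenchymal cells with 0 UMIs of the epithelial genes of the rule, Sox9 was at 253 CPM (217 to 294), and the cartilage list (Col2a1, Acan, Matn1, Col9a3 and Hapln1) was at 8.37 CPM in P0 mesenchyme as a whole. The P0 barcodes left out, shallow and deep together, held Sox9 at 294 CPM (271 to 319), which overlapped the interval of P0 mesenchyme. The part of free RNA was not tested.

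Sox10, the SoxE factor of the neural crest, was all but absent from the embryo. It gave 0, 1 and 3 UMIs in embryonic epithelium and 27 UMIs, or 10.3 CPM (6.81 to 15.0), in P0 epithelium. The mesenchyme gave 1, 0, 1 and 4 UMIs. The P0 epithelial level was 49.2 times that of E15.5 (15.1 to 253), at least 7.03-fold higher than at E13.5, where 3 counts were taken for the 0 found, and 6.47 times that of P0 mesenchyme (2.26 to 25.5). The barcodes left out held Sox10 at 16.7 CPM at P0 (11.5 to 23.4), which overlapped the interval of P0 epithelium, and at 2.32 CPM at E15.5 (1.32 to 3.76). Those of E15.5 include deep cells, since a limit of 10% mitochondrial UMIs kept 716 epithelial cells there in place of 532. The part of free RNA was not tested. Of the 23 P0 epithelial cells with a Sox10 UMI, 21 also had Sox9, which was found in 202 of all 230 (87.8%), and 0 had a UMI of the melanocyte list (Dct, Pmel, Tyr, Mlana and Tyrp1).

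Bcl11a and Bcl11b were both highest at E14.5 and differed in where they remained. Bcl11a stood at 44.6, 66.8, 12.9 and 12.2 CPM in the epithelium of the successive stages and at 61.9, 126, 82.8 and 1.99 CPM in mesenchyme. In epithelium as a whole the level at E13.5 was 3.44 times that of E15.5 (2.65 to 4.45), and the ratio of E15.5 to P0 was 1.06 (0.724 to 1.59). Within subsets described below, the E15.5 bud cells were at 2.28 times the P0 luminal progenitor cells (1.26 to 4.54), which held 12 UMIs. The P0 hormone-sensing cells were at 28.6 CPM (16.3 to 46.4) on 16 UMIs, 7 of them from 1 cell, against 17.3 CPM (14.3 to 20.8) in the E15.5 bud cells. Their intervals overlapped, and the P0 basal cells held 1 UMI. By the mean CPM of single cells, the hormone-sensing cells were at 18.1 and the E15.5 bud cells at 17.6. In mesenchyme E14.5 was 1.53 times as high as E15.5 (1.23 to 1.88), and E15.5 was 41.5 times as high as P0 (17.7 to 128), where 5 UMIs were found. At E14.5, 12 of the 31 mesenchymal cells had at least 2 UMIs of the proliferation genes Top2a and Mki67. They held Bcl11a at 187 CPM, against 65.0 CPM in the other 19, 2.88 times as high (1.84 to 4.63). At E15.5 the cells with at least 2 such UMIs were at 96.4 CPM and the others at 72.6 CPM. The part of proliferating cells in the E14.5 level was not tested. The P0 barcodes left out of the analysis, shallow and deep together, held Bcl11a at 17.2 CPM (11.9 to 24.0). This overlapped the interval of P0 epithelium (8.37 to 17.3) and lay above that of P0 mesenchyme (0.647 to 4.65).

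Bcl11b was the member most completely lost. Its levels were 126, 170.4, 48.2 and 1.53 CPM in epithelium and 122, 205, 52.8 and 0.798 CPM in mesenchyme, with 4 and 2 UMIs at P0. Epithelium and mesenchyme did not differ beyond counting error at any stage, so the 8 levels ordered by stage alone. The E15.5 level was 31.5 times that of P0 in epithelium (12.2 to 116) and 66.1 times in mesenchyme (18.2 to 548), and part of the decline was earlier, since E13.5 was 2.61 times as high as E15.5 in epithelium (2.25 to 3.02) and 2.31 times in mesenchyme (1.98 to 2.70). Between E13.5 and E15.5, Bcl11a and Bcl11b were the 2 of 6 members at least 2-fold lower at the later stage in epithelium, beside 13.7% of 9412 genes, and Sox9, 2.68 times as high at E15.5 (2.41 to 2.99), was the 1 that was higher, beside 12.2%. In mesenchyme, Sox11 and Bcl11b were lower, 2 of 6 beside 12.0% of 10046 genes, and 0 of 6 were higher, beside 6.0%. Scaling by median-of-ratios size factors lowered these ratios of E13.5 to E15.5 by 0.15 in epithelium and 0.22 in mesenchyme on the log2 scale, which put Bcl11b at 0.99 in mesenchyme, just under 2-fold, so that 1 of 6 was lower there, and Sox11 at -1.05 in epithelium, so that 2 of 6 were higher there. The E15.5 library was counted with another Cell Ranger version and gene list than the other libraries, and its part in the lower Bcl11a and Bcl11b levels of E15.5 was not tested.

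The question of which members were lost between E15.5 and P0 was put to all 7 with the same rule, a fold of at least 2 among genes with a mean of at least 5 CPM over both classes. In epithelium, 3 of the 7 (Sox11, Sox12 and Bcl11b) were lower at P0, where 14.7% of 9355 genes were, and 1 of the 7 (Sox10) was higher, where 14.6% of the genes were. Sox10 passed the level minimum only through P0, here and in the other counts that include it, so nothing is read from its part in them. Sox4, Sox9 and Bcl11a stayed within 2-fold. In mesenchyme, Sox10 was under the level minimum and 4 of the other 6 (Sox4, Sox12, Bcl11a and Bcl11b) were lower at P0, where 25.4% of 9795 genes were, and Sox9 was higher, as were 1421 of these genes. Sox12 and Bcl11b were the members lower at P0 by this rule in both tissues. Sox12 in epithelium, Bcl11a in mesenchyme and Bcl11b in both tissues passed the level minimum only through the embryonic stage. The same holds in the later counts against P0, so nothing is read from their part in the counts. The median log2 ratio of all genes, E15.5 over P0, was 0.07 in epithelium and 0.38 in mesenchyme, where the size factors lowered all ratios by 0.45 and left Sox4 at 0.97, just under 2-fold, so that 3 members passed.

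**Figure D2:**
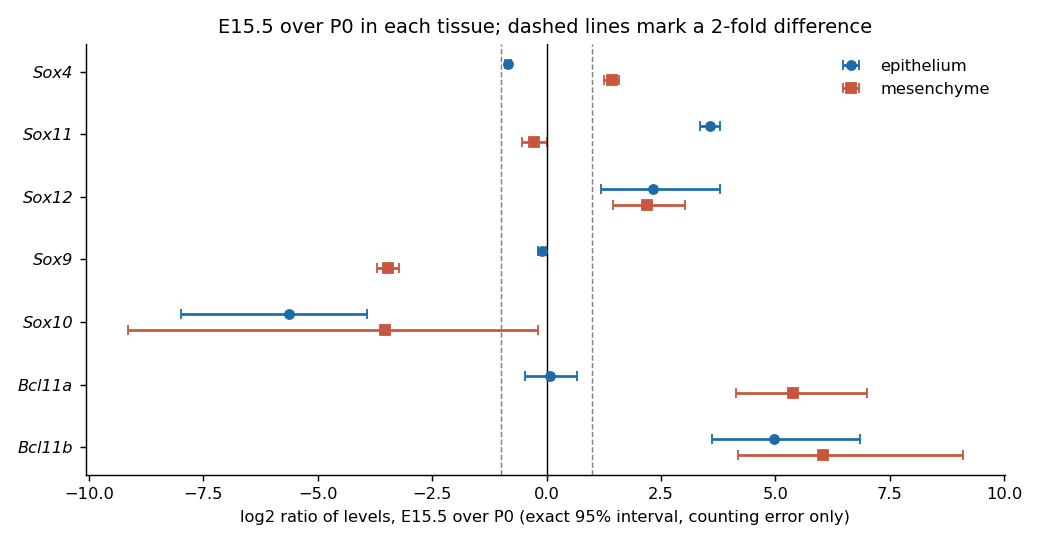
Ratio of the E15.5 level to the P0 level on a log2 scale (horizontal axis) for each gene (vertical axis) in epithelium (circles) and mesenchyme (squares), with exact 95% intervals as bars and dashed lines at a 2-fold difference. Sox4 lies at -0.85 in epithelium and 1.42 in mesenchyme and Sox11 at 3.56 and -0.27, while Bcl11b lies at 4.98 and 6.05.

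The loss was also measured from the stages counted with the same gene list as P0, which share the P0 library with the comparison above. In epithelium, 4 of 7 members were at least 2-fold lower at P0 than at E13.5 (Sox11, Sox12, Bcl11a and Bcl11b), where 20.3% of genes were, and the same 4 were lower at P0 than at E14.5, where 27.3% of genes were. Sox9 and Sox10, 2 of 7, were higher at P0 than at either stage, beside 16.6% and 13.3% of genes. Bcl11a was 3.64 times as high at E13.5 as at P0 (2.41 to 5.63) and 5.45 times at E14.5 (3.59 to 8.47). Bcl11b was 82.3 times (31.7 to 304) and 111 times as high (42.9 to 413). Sox9 was at 0.347 times (0.308 to 0.390) and 0.494 times (0.436 to 0.559) its P0 level. In mesenchyme, 5 of 6 members were lower at P0 than at E13.5, beside 35.4% of genes, and than at E14.5, beside 36.9% of genes, and Sox9 was again the reverse, beside 14.1% and 12.7% of genes. There Sox11 joined the others, with 5.09 times its P0 level at E13.5 (4.31 to 6.04) and 2.05 times at E14.5 (1.61 to 2.62). Under size factors Sox4 and Sox11 came to 0.74 and 0.31 on the log2 scale for E14.5 over P0 in mesenchyme, so that 3 of 6 members passed there, while the 5 of E13.5 still did.

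Between the tissues, the members went in both directions. At E13.5 only Sox9 was at least 2-fold higher in epithelium, at 3.86 times the mesenchymal level (3.11 to 4.82), beside 10.3% of 10222 genes, and 0 of 6 were higher in mesenchyme, beside 21.0%. At E14.5 Sox11 joined it at 4.52 times (3.72 to 5.54), with Sox9 at 5.27 times (3.78 to 7.51), beside 15.1% of 10490 genes, and again 0 of 6 were higher in mesenchyme, beside 20.4%. At E15.5 these 2 were again the members higher in epithelium, beside 14.2% of 9698 genes, at 13.9 times for Sox11 (12.6 to 15.4) and 18.8 times for Sox9 (16.3 to 22.0). At this stage 2 members were higher in mesenchyme, beside 19.5% of genes, Bcl11a at 6.40 times the epithelial level (5.42 to 7.58) and Sox12 at 2.52 times (2.04 to 3.11). At P0, 3 of the 5 members above the level minimum were higher in epithelium, beside 24.1% of 9731 genes: Sox4 at 7.12 times (6.35 to 8.0), Sox10 at 6.47 times and Bcl11a at 6.14 times (2.37 to 20.2), and 0 of 5 were higher in mesenchyme, beside 18.5%. Bcl11a was thus higher in mesenchyme at E15.5 and in epithelium at P0. At P0 it passed the minimum only through epithelium, with 5 UMIs in mesenchyme. Sox9 was at 1.83 times (1.67 to 2.01) and Sox11 at 0.976 times (0.785 to 1.21) at P0. Without P0 epithelial cells that had more skin than bud UMIs, Sox10 came under the level minimum and 2 members remained.

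Shares of cells with a UMI depend on depth, so they are given after a random draw of 5000 UMIs from each cell, called thinning here. After thinning, Sox11 was found in 74.5%, 84.4% and 83.5% of epithelial cells at the embryonic stages and in 17.4% at P0 (12.7 to 22.9), and before thinning in 95.1% at E15.5 and 26.5% at P0. In mesenchyme the thinned shares were 65.9%, 35.5%, 12.0% and 24.2%. Both measures thus placed Sox11 in most embryonic epithelial cells and in a minority at birth. Sox4 was found in 89.8%, 82.2%, 72.9% and 73.5% of thinned epithelial cells and in 78.5%, 77.4%, 70.3% and 30.4% of mesenchymal cells. Its share of epithelial cells was alike at E15.5 and P0 while its level was higher at P0, where the tenth of cells with the most Sox4 held 42.9% of its UMIs, against 36.9% at E15.5. Sox9 was found in 50.0%, 53.3%, 73.3% and 73.0% of thinned epithelial cells and in 11.9%, 12.9%, 11% and 48.4% of mesenchymal cells.

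Bcl11b was found in 36.7%, 44.4% and 19.5% of thinned embryonic epithelial cells and in 0.870% at P0 (0.105 to 3.11), and in 34.8%, 48.4%, 18.4% and 0.733% of mesenchymal cells. Bcl11a was found in 20.4%, 20%, 7.89% and 4.78% of epithelial and 18.5%, 32.3%, 28.6% and 0.366% of mesenchymal cells. The P0 mesenchymal share, 1 of 273 cells, had a UMI of Bcl11a, a share at which stray transcripts cannot be told apart from expression. Sox12 never exceeded 20% of the thinned cells of a class, and Sox10 was found in 11 of 230 P0 epithelial cells, 4.78% (2.41 to 8.40), against 2 of 273 mesenchymal cells, 0.733% (0.0888 to 2.62).

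**Figure D3:**
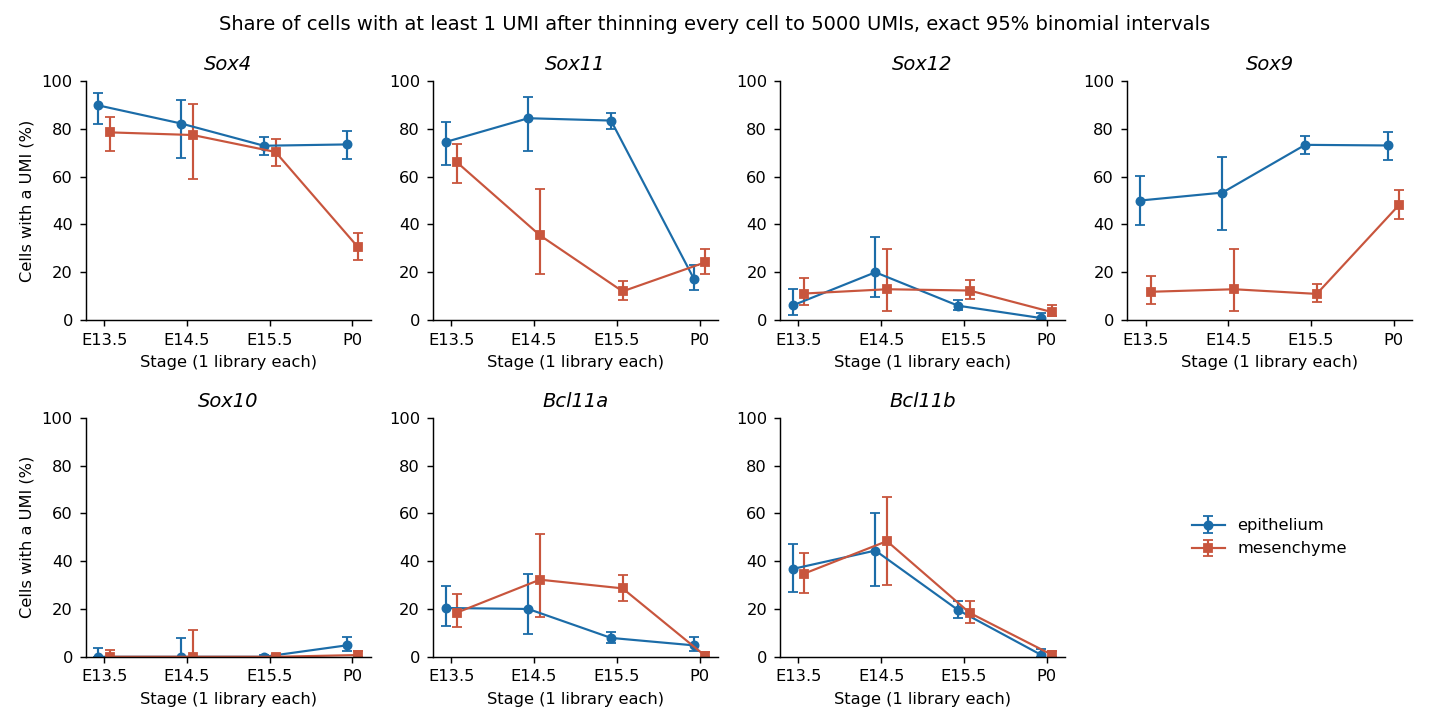
Percentage of cells with at least 1 UMI of each gene after every cell was thinned to 5000 UMIs (vertical axes, 0 to 100%) by stage (horizontal axes) in epithelium (circles) and mesenchyme (squares), with exact 95% binomial intervals as bars. Sox11 goes from 83.5% of epithelial cells at E15.5 to 17.4% at P0, and Sox9 from 11% to 48.4% of mesenchymal cells.

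Pairs of related members were also read in the same thinned cells. Sox4 and Sox11 were found together in 67.3%, 71.1% and 62.2% of embryonic epithelial cells, in order of stage, and in 10.9% of P0 epithelial cells (7.16 to 15.6), close to the product of the single shares, which was 66.9%, 69.4%, 60.9% and 12.8%. Bcl11a and Bcl11b were found together in 8.16%, 8.89% and 2.07% of embryonic epithelial cells and in 0 of 230 at P0. Cells with no UMI of any member made up 1.02%, 0%, 1.88% and 5.65% of epithelium and 3.70%, 3.23%, 12.0% and 27.5% of mesenchyme, so at birth most cells of either tissue held at least 1 member. In P0 mesenchyme the most frequent was Sox9, in 48.4% of cells against 11% at E15.5, so this share does not show that the set persisted.

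Within the embryonic epithelium, a bud subset was set apart as cells with at least 5 UMIs of the bud markers and more bud than skin UMIs. At E15.5 it held 243 cells and the other epithelium 289, whose skin list stood at 146 and 2264 CPM. Krtdap gave 12177 of the 18542 skin list UMIs of E15.5 epithelium. The paper reports Krtdap in its luminal-like mammary cells at that stage, so these UMIs alone do not mark a cell as skin. It also found and removed contaminating skin cells, so the other epithelium can hold both. Bcl11b was at 74.9 CPM in the bud subset and 25.7 in the other cells, 2.91 times as high (2.46 to 3.45). Sox4 was at 688 and 388 CPM, 1.78 times as high (1.69 to 1.86), and Sox12 and Bcl11a were 1.83 times (1.33 to 2.54) and 1.87 times as high (1.38 to 2.55). Sox11 was at 778 and 779 CPM, a ratio of 0.999 (0.962 to 1.04), and Sox9 at 458 and 485 CPM, a ratio of 0.944 (0.900 to 0.991). When both subsets were restricted to cells whose winning marker sum was at least 5 times the other (96 and 123 cells), the ratios were 3.51 for Sox4, 3.30 for Sox12, 2.88 for Bcl11a and 5.08 for Bcl11b, and Sox11 was at 1.2.

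The bud subset of E13.5 (49 of 98 cells) had another profile. Sox11 was at 552 CPM in it and at 239 CPM in the other cells, 2.31 times as high (1.98 to 2.72), and Bcl11b at 151 and 93.1 CPM, 1.62 times as high (1.24 to 2.13). Sox4 and Sox9 were lower in it, at 0.812 times (0.735 to 0.897) and 0.686 times (0.555 to 0.848). Sox11 was thus uneven across the epithelium at E13.5 and even at E15.5. At E14.5 only 6 epithelial cells were outside the bud subset, and their values are not compared here.

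At E15.5 the epithelium was also split by the larger of the sums of outer markers (Cxcl14, Pthlh, Ndnf and Lmo1) and inner markers (Anxa1, Ly6d, Lgals3 and Plet1), which are close to the basal and luminal positions of the rudiment. Pthlh, Ndnf and Lmo1 are also bud markers, so this split overlaps that of the bud subset and its ratios are not independent of those above. The outer cells numbered 298 and the inner cells 220. Sox4 was at 684 CPM in outer and 327 in inner cells, 2.09 times as high (1.99 to 2.20), Bcl11b at 71.0 and 21.9 CPM, 3.24 times as high (2.68 to 3.93), and Bcl11a and Sox12 were 2.28 times (1.63 to 3.24) and 2.16 times as high (1.52 to 3.1). Sox11 was 1.09 times as high in outer cells (1.05 to 1.13), while Sox9 was 1.12 times as high in inner cells (1.06 to 1.17). The inner cells held the skin list, in which Krtdap led in E15.5 epithelium, at 2667 CPM against 191 in outer cells. Whether they were luminal-like mammary or skin cells, and the part of this in these differences, was not tested.

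At P0, epithelial cells were assigned to the largest sum, of at least 3 UMIs, of basal markers (Acta2, Myh11, Mylk, Cnn1 and Oxtr; 18 cells), luminal progenitor markers (Aldh1a3, Kit, Elf5 and Lypd3; 147 cells) or hormone-sensing markers (Prlr, Cited1, Esr1 and Pgr; 33 cells). Of the other 32 cells no sum reached this limit or led. Sox9 was at 583 CPM in luminal progenitor, 432 in hormone-sensing and 220.1 in basal cells, 2.65 times as high in luminal progenitor as in basal cells (1.95 to 3.68). Sox4 was high in all 3, at 1017, 729 and 742 CPM. Sox11 went the other way, at 102 CPM in basal cells (62.5 to 158) against 44.9 in luminal progenitor and 42.9 in hormone-sensing cells, which put basal cells at 2.28 times luminal progenitors (1.31 to 3.79) on 20 UMIs. The 32 unassigned cells held Sox11 at 205 CPM, and 48 of their 57 UMIs were from 1 cell.

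Of the 27 Sox10 UMIs in P0 epithelium, 24 were in luminal progenitor cells, at 15.2 CPM (9.73 to 22.6), with 3 more in unassigned cells. The share of luminal progenitor cells with a Sox10 UMI was 14.3% (9.07 to 21.0). Among the 18 basal cells 0 had one, which at 3 counts over the number of cells allows up to 16.7% (exact binomial bound 18.5%). At this number of cells a difference between basal and luminal progenitor cells was therefore not detectable. Among the 33 hormone-sensing cells 0 had one, which allows up to 9.09% (10.6%). With 3 counts taken for that 0, the level in luminal progenitor cells was at least 2.83 times as high (lower limit 2.13). Bcl11a was at 28.6 CPM in hormone-sensing cells (16 UMIs) and at 7.59 CPM in luminal progenitor cells (12 UMIs), 3.76 times as high (1.67 to 8.71). Of these 16 UMIs, 7 were from 1 cell, and the mean CPM of single cells was 18.1 against 6.09. The hormone-sensing cells also held Top2a and Mki67 at a summed 612 CPM against 94.3 in luminal progenitor cells, and Bcl11a was 3.85 times as high in the 23 P0 epithelial cells with at least 2 UMIs of these proliferation genes as in the others (1.77 to 8.18). The part of proliferation in the Bcl11a difference was not tested. Bcl11b had 2 UMIs in luminal progenitor cells, 2 in unassigned cells and 0 in the other classes.

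**Figure D4:**
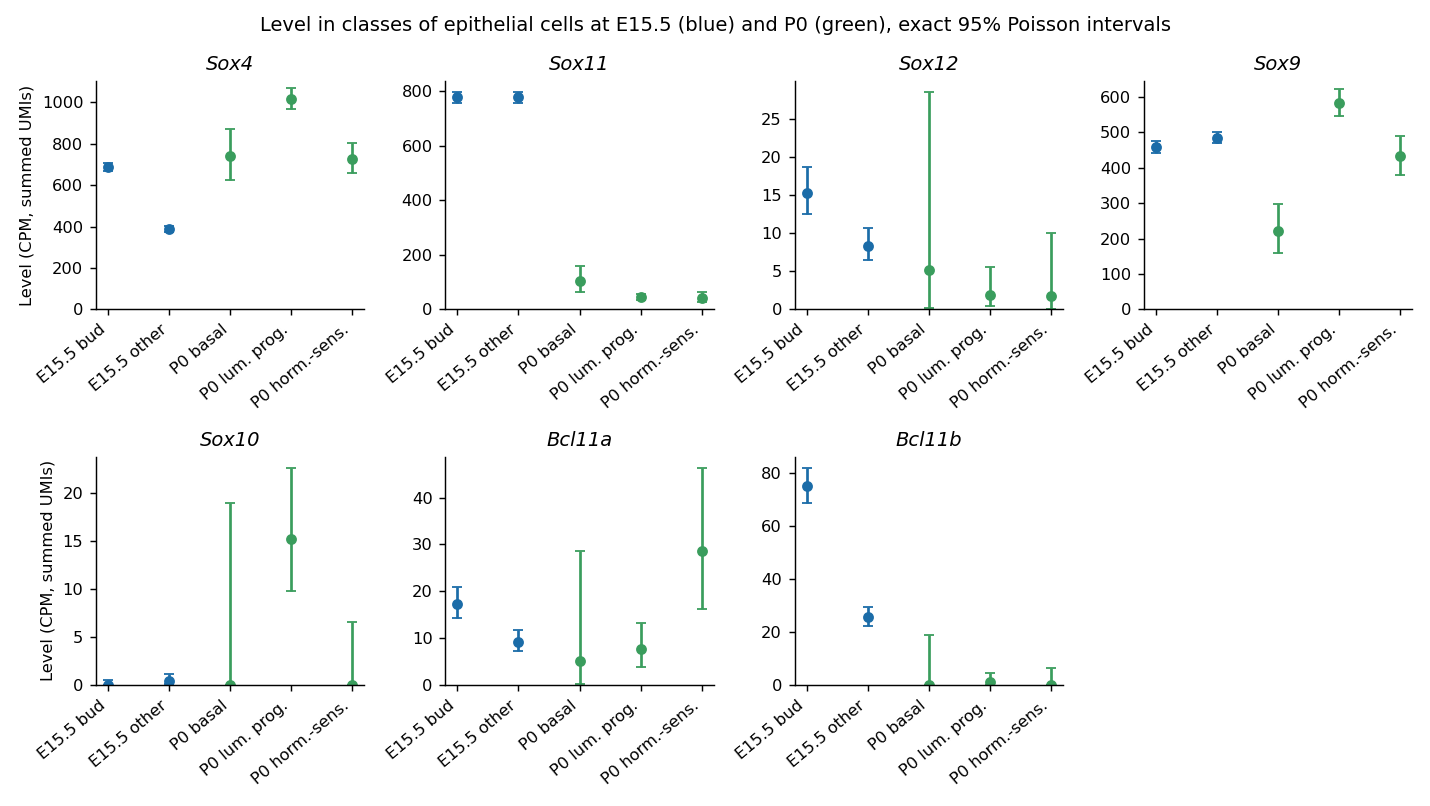
Level of each gene in CPM (vertical axes, linear, each with its own range) in epithelial cell classes set by marker sums, with the E15.5 bud subset and other epithelium in blue and the P0 basal, luminal progenitor and hormone-sensing cells in green, and exact 95% Poisson intervals as bars. Sox11 is near 778 CPM in both E15.5 classes and at 42.9 to 102 CPM in the P0 classes. Sox10 is found in luminal progenitor cells at 15.2 CPM. Among the classes at 0 for Sox10, the interval reaches 18.9 CPM in P0 basal, 6.59 in P0 hormone-sensing and 0.565 in E15.5 bud cells.

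The mesenchyme of E15.5 was split by genes the study names for sub-epithelial (Esr1, Lef1, Crabp1 and Vcan; 194 cells) and dermal mesenchyme (Plagl1 and Cdkn1c; 89 cells), lists that were added after values had been seen. Bcl11a was at 95.8 CPM in sub-epithelial and 47.2 in dermal cells, 2.03 times as high (1.62 to 2.56), and Sox12 was 1.84 times as high (1.28 to 2.73). Sox9 and Sox11 were higher in dermal cells, by 3.05 times (2.25 to 4.12) and 2.24 times (1.83 to 2.73). Of the 406 Sox11 UMIs of E15.5 mesenchyme, 61 were from 1 cell. The tenth of its cells with the most UMIs of the gene held 76.6% for Sox11 and 78.0% for Sox9. Bcl11b did not differ beyond counting error, with a ratio of 0.958 (0.763 to 1.21). The sub-epithelial cells held the proliferation genes at 592 CPM against 132 in dermal cells, and within E15.5 mesenchyme Sox11 was 2.75 times as high in cells with fewer than 2 such UMIs (2.17 to 3.53) and Bcl11a 1.33 times as high in cells with more (1.13 to 1.56).

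P0 mesenchyme was split in the same way into cells led by Pi16, Dpp4, Sema3c and Wnt2 (95 cells), by Col15a1, Fabp4, Pparg and Aoc3 (64 cells) or by Eln, Mfap4 and Mgp (97 cells). Sox9 was found in each, at 170.4, 407 and 280.5 CPM. The Col15a1 group was 2.39 times the Pi16 group (1.95 to 2.94) and 1.45 times the Eln group (1.2 to 1.75), and with the stricter margin the Pi16 and Eln groups came level, at 177 and 176 CPM. Sox11 was at 71.0, 85.1 and 58.0 CPM, and none of the 3 ratios differed beyond counting error, but with the stricter margin the Col15a1 group was 2.81 times the Eln group in place of 1.47 times. Bcl11a and Bcl11b gave at most 2 UMIs in any of these groups.

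Across stages, proliferating cells did not hold the members as a block. Bcl11b was 1.60 times as high in cells with at least 2 UMIs of Top2a and Mki67 as in other epithelial cells at E13.5 (1.22 to 2.10) and 2.10 times at E14.5 (1.59 to 2.77), and at E15.5 the ratio was 1.08 (0.917 to 1.27). Sox4 was 1.39 times as high in the cells with fewer such UMIs at E13.5 (1.25 to 1.53) and 2.08 times at E14.5 (1.77 to 2.46), and at P0 its ratio was 0.991 (0.890 to 1.10). Cells with these UMIs were deeper, with medians of 23882 and 16980 UMIs at E13.5.

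Other genes of these families and pathways were counted for context. Of 14 other Sox genes, 1 passed the level minimum in epithelium: Sox6, a SoxD gene, at 36.7, 44.8, 12.4 and 3.44 CPM, 3.60 times as high at E15.5 as at P0 (1.85 to 8.0). Sox14 was at 23.5, 15.7 and 7.84 CPM in embryonic epithelium and gave 1 UMI at P0, and Sox13 was the other Sox gene tested in mesenchyme, where it was higher at P0, at 8.37 CPM against 1.65 at E15.5. Sox6 passed the level minimum only through E15.5 and Sox13 only through P0, so nothing is read from their directions. Of 19 genes of the BAF complex that passed in epithelium, 3 were at least 2-fold lower at P0, where 14.7% of all genes were, and 0 higher, where 14.6% were. The other 16 stayed within 2-fold, and the median log2 ratio was 0.50 beside 0.07 for all genes. In mesenchyme 11 of 21 were lower, where 25.4% of all genes were, and 0 higher, where 1421 of 9795 were, with a median of 1.14 beside 0.38. In each tissue a BAF gene counted as lower at P0 passed the level minimum only through E15.5. Nothing is read from its part in these counts. Arid1a, the DNA-binding subunit of BAF, was 2.30 times as high at E15.5 as at P0 in epithelium (2.01 to 2.65) and 2.21 times in mesenchyme (1.83 to 2.69), and the core subunit Smarcc1 1.71 times (1.5 to 1.94) and 3.68 times (3.03 to 4.5). Pbrm1, a subunit of the related PBAF form, was at 1.09 times in epithelium (0.995 to 1.19) and 1.41 times in mesenchyme (1.25 to 1.59), and Smarce1, an HMG box subunit, at 1.49 times (1.34 to 1.67) and 2.97 times (2.5 to 3.55). Most BAF genes, like most of all genes tested, thus stayed within 2-fold in the epithelium, in which Bcl11b was 31.5 times as high at E15.5.

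All 6 other fetal growth regulators that passed in epithelium were lower at P0, as were 5 of 6 in mesenchyme, with median log2 ratios of 1.94 and 2.29, beside 14.7% and 25.4% of all genes and medians of 0.07 and 0.38. Here and in the lineage list below, some genes passed the level minimum only through E15.5 or only through P0. Nothing is read from their part in the counts or medians. Hmga2, a chromatin protein of embryonic cells, was at 36.4 CPM at E15.5 and 9.94 at P0 in epithelium, 3.67 times as high (2.47 to 5.66), and at 303 and 5.18 CPM in mesenchyme, 58.4 times as high (34.1 to 110). Igf2bp1, a fetal RNA-binding protein, was 6.89 times as high at E15.5 in epithelium (5.63 to 8.53) and 6.16 times in mesenchyme (4.64 to 8.33). Of 14 epithelial lineage transcription factors that passed in epithelium, 6 were lower at P0, 3 higher and 5 within 2-fold, with a median of 0.81, beside 14.7% lower and 14.6% higher among all genes and a median of 0.07. Trp63, the basal master regulator, was at 139, 247, 79.3 and 3.82 CPM and so 20.7 times as high at E15.5 as at P0 (11.2 to 43.4), whereas Cebpb was at 216 CPM at E15.5 and 400 at P0, a ratio of 0.540 (0.504 to 0.580). Trp63 passed the level minimum only through E15.5. Of the 230 P0 epithelial cells 18 were in the basal class, and embryonic epithelium was not mammary epithelium alone. The part of cell mix in the Trp63 ratio was not tested.

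The genes whose log2(CPM + 1) over the 8 classes of stage and tissue was most like each member were Plxna2 (Pearson r = 0.966), Tle4 and Rsbn1l for Sox11, Hspbp1 (r = 0.977), Wdr77 and G3bp1 for Sox4, and Bora (r = 0.995), Mvk and Vopp1 for Sox12. For Sox9 they were Pnpla2 (r = 0.974), Zbtb43 and Dst, and for Sox10 S100g (r = 0.971), Cxcl17 and Csn1s1, the first of which stood at 47.0 CPM in P0 epithelium and at 0.070 CPM at E15.5. For Bcl11a they were Hpf1 (r = 0.994), Ttk and Ints14, and for Bcl11b Clstn2 (r = 0.996), Ilf2 and Clk4. Among the members, Sox12 and Bcl11b (r = 0.910) and Bcl11a and Bcl11b (r = 0.871) were most alike, and Sox12 and Sox10 least (r = -0.835). These values describe 8 points from 4 libraries, in which both tissues of a stage share a library and its depth, out of 8804 genes compared (8805 for Sox10).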

How the data were processed

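The authors deposited, for each stage, 1 table of UMI counts per gene and cell barcode, without normalization, made with 10x Cell Ranger on the pre-built mm10 reference. Per the file headers the version was 3.1.0 for E15.5 and 6.0.0 for the other stages, and the submitters' processing notes name 6.0.0 throughout. Ensembl identifiers were used to join the stages. The thresholds on UMIs and mitochondrial UMIs follow the study, and more cells were kept here at every stage than the study states. Doublets were excluded by gating during the sort, as the study describes, and no doublet caller was run here. Alternatives left out the 17 cells with at least 20 UMIs of both tissue sums.

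UMIs were summed over the cells of a class and given as CPM with Poisson intervals. Ratios have conditional binomial intervals and shares exact binomial ones. Where a class had 0 UMIs, 3 counts were taken. A fold of 2 among genes of at least 5 CPM was the rule of size. With 1 library per stage no test or p-value was computed. On simulated counts for E15.5 and P0 epithelium (9355 genes, 200 changed 4-fold), 95.7% of intervals held the true ratio, 99.5% of changed genes passed 2-fold and 0.371% of unchanged genes did. With 1 library per stage, these rates cannot cover differences between libraries and are no check on the 2-fold calls in the data. The members and lists were chosen with earlier results of these data known. All 7 members are named, with, per list, at most the 4 genes of highest level, and per member the 3 most alike genes with at least 20 CPM in a class. The lists that split the mesenchyme, and the alternative without mesenchymal cells holding T cell, endothelial or muscle UMIs, were chosen after seeing the data. Promoters came from RefSeq, which matched 5 members. Other alternatives were a minimum of 3000 UMIs, a maximum of 10% mitochondrial UMIs, thinning, the mean CPM of single cells, size factors, a 5-fold tissue margin, leaving out epithelial cells with more skin than bud UMIs, the earlier embryonic stages in place of E15.5 and no level filter. Python 3.11.15, numpy 2.4.6, scipy 1.17.1, pandas 2.3.3 and matplotlib 3.10.9 were used.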

Additional observations from a re-analysis of the deposited data

Results flagged for a closer look

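The difference between E15.5 and P0 went in opposite directions in the tissues for Sox4, whose log2 ratio of E15.5 over P0 was -0.85 in epithelium and 1.42 in mesenchyme. The same was seen for Sox11, at 3.56 in epithelium and -0.27 in mesenchyme. With 1 library per stage the difference between the tissues was not tested. For Sox11 the mesenchymal value became 2.11 when E13.5 and E14.5 were summed as the earlier stage, so its opposite direction holds for E15.5 alone.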

How the results depend on the processing

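Over 365 single-gene ratios recomputed under 10 alternatives, 304 stayed within their counting interval, 61 moved outside it and 0 of those past 2-fold turned direction. Values under 2-fold that changed sign under at least 1 alternative were those of Sox11 (E15.5 over P0 in mesenchyme, and between the tissues at P0), Sox12 (between the tissues at E14.5) and Bcl11b (between the tissues at E13.5 and E15.5). The members at least 2-fold lower at P0 than at E15.5 numbered 3 to 4 in epithelium and 3 to 5 in mesenchyme, those higher in epithelium 2 throughout at E15.5 and 2 to 3 at P0. All genes at least 2-fold lower at P0 in epithelium numbered 1372, against 2206 with E13.5 and E14.5 summed as the earlier stage and 2453 with no filter on low values, and the cause of the first was not tested. With the earlier stages summed, Bcl11a in epithelium went from 0.08 to 2.12 on the log2 scale. Of 54 ratios between subsets of cells, 29 moved outside their counting interval and 25 stayed within it with the stricter margin, and 8 changed sign, none of them past 2-fold before, and Sox4 between the Pi16 and Eln groups of P0 mesenchyme was among them (-0.51 to 0.73). No replicate could be left out, and no paired analysis was possible because each stage has 1 library. Depth limits Sox10, Sox12 and both Bcl11 genes at P0, which rest on 2 to 32 UMIs a tissue.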
